A study of Rattus norvegicus with 12 samples.

Results

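The comparison described here set pituitaries of female rat fetuses whose dams had been exposed to the dioxin TCDD against pituitaries of female control fetuses. Its members were the 6 arrays titled as female out of 12 in the series: control arrays C1, C2 and C3, and TCDD arrays T1, T2 and T3. All fetuses were of the Wistar strain and were taken at gestational day 18, and the other 6 arrays hold male fetuses of the same stage and treatments. The labels give no dose, day of dosing, litter or number of pituitaries per array. A p-value here rests on the spread between arrays within the groups of all 12 arrays, male arrays included, which may be partly technical. Total RNA, labelled with Cy3, was hybridised to one-colour Agilent arrays. A level in the text is the log2 signal of a gene's probe minus the 75th percentile of its array, so a negative level lies below that percentile, and a difference is TCDD minus control on the same scale. Levels of different probes were not compared with each other.

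TCDD is a persistent ligand of the aryl hydrocarbon (Ah) receptor, a transcription factor that is held in the cytoplasm by chaperones until a ligand binds. The receptor then enters the nucleus, pairs with Arnt and binds short elements with the core GCGTG near genes for enzymes of xenobiotic metabolism. It also induces its own repressor, Ahrr, which closes a feedback loop. In late gestation the fetal anterior pituitary holds dividing progenitors and young hormone-producing cells, of which the corticotropes and thyrotropes mature early and the somatotropes and lactotropes late.

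The upstream sequences of Ahrr, Cyp1b1 and Nqo1 are printed to show what copies of that core look like next to the start of transcription. RefSeq's promoter table for the GRCr8 assembly held an entry for 17 of the 21 genes on the Ah receptor list, and of the others Cyp1a1, Aldh3a1 and Ihh are named only. Each line gives the 250 bases before the start of the gene, read 5′ to 3′ along the gene's strand, with every GCGTG, or CACGC where the core lies on the opposite strand, in capitals. Ahrr (chr1:30821969-30822218, plus strand) held 3 copies, all as GCGTG, Cyp1b1 (chr6:21094315-21094564, plus strand) held 1 on each strand, and Nqo1 (chr19:52220268-52220517, minus strand) held 1 as CACGC.
Ahrr: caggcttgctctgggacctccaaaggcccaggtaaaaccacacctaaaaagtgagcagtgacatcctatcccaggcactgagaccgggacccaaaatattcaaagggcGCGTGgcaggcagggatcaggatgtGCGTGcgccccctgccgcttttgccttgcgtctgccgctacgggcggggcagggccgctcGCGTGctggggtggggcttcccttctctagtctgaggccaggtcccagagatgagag
Cyp1b1: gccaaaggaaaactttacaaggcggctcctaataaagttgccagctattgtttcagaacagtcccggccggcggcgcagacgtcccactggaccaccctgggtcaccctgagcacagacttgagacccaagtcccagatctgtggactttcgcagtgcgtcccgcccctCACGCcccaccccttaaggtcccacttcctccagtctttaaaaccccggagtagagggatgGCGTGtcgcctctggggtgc
Nqo1: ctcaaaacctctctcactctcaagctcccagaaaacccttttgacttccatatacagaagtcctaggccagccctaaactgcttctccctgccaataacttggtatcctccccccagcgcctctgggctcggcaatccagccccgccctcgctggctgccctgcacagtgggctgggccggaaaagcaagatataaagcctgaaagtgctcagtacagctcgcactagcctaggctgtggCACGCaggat
The core was in at least 1 entry of 11 of the 17 listed genes, and in none for Ahr, Arnt2, Cyp1a2, Nfe2l2, Ugt1a1 and Xdh. Of all 33469 promoters in the table, 25.9% held the core on either strand in the same window and 2.45% held 3 or more copies. A match of these letters is a description of the sequence and not a binding site.

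The female arrays differed in a signal that some control and some TCDD arrays carried. Avil, an actin-binding protein of sensory neurons, lay at -3.55, 0.83 and -3.67 in C1, C2 and C3 and at 0.80, -3.40 and 0.17 in T1, T2 and T3. Control array C2 and TCDD arrays T1 and T3 thus had a far higher signal than the other 3 female arrays, and they are called the marked arrays. Avil was well above background on all 6. Over 31 measured sensory neuron markers the mean level was 0.83, 0.64 and 0.24 in C2, T1 and T3 and -2.55, -2.96 and -2.84 in C1, C3 and T2. P2rx3, an ATP-gated channel of pain fibres, differed by 6.40 between the marked and the other arrays, and Prph, a filament protein of peripheral neurons, by 6.25. None of these markers reached an unadjusted p of 0.05 for TCDD, but since 2 marked arrays were TCDD and 1 was control, their median TCDD difference was 0.91. Within the marked arrays it was -0.32 and within the others 0.02. Schwann and satellite glia markers followed the same arrays, with means of -1.39, -1.14 and -1.54 in C2, T1 and T3 against -3.03, -2.81 and -2.78 in C1, C3 and T2. Prdm12, Htr1d, Stmn2, Ndrg4 and Tubb2a had the profiles most like Avil over the 12 arrays (Pearson correlations from 0.9966 to 0.9985), which share this division of the arrays. The first principal component of the 6 arrays held 55.5% of the variance and separated the marked arrays from the others, not TCDD from control.

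**Figure D1:**
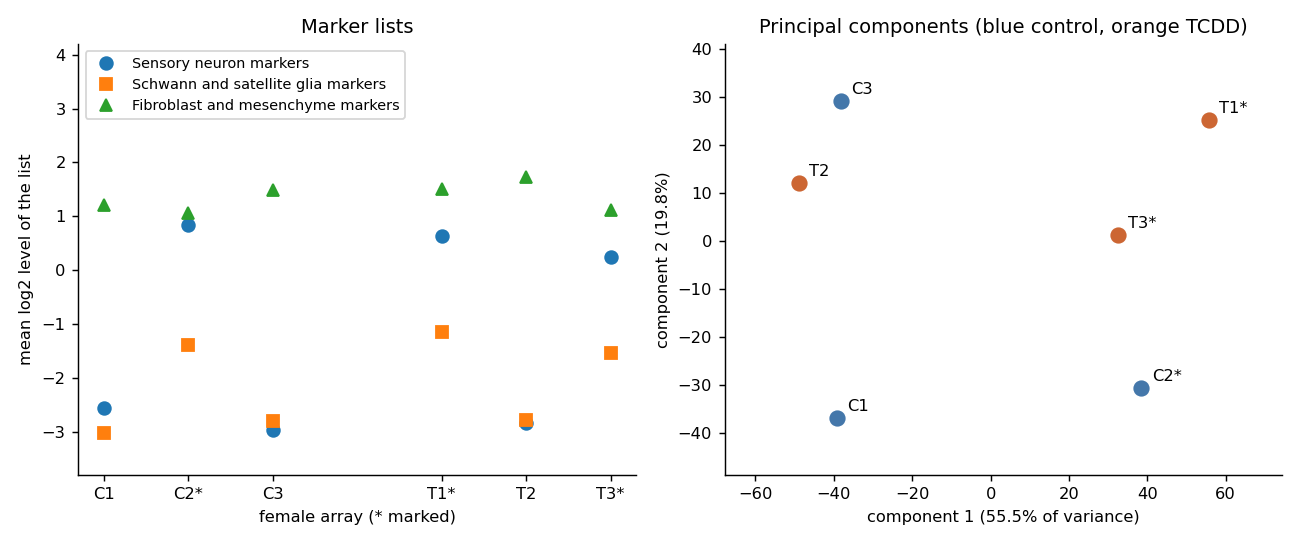
Left, mean log2 level of 3 marker lists (y axis) in each female array (x axis, asterisks for marked arrays); right, the first against the second principal component of the 6 female arrays, with the share of variance on each axis. Sensory neuron and glia markers are high in C2, T1 and T3, the fibroblast list lies between 1.05 and 1.73 in every array, and component 1 divides the same arrays.

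The labelled tissue was checked against genes that define it. Pomc, the precursor of corticotropin, Cga, the subunit shared by the glycoprotein hormones, Tshb, Pou1f1 and Pitx1 were each well above background on all female arrays with a value. Female arrays also stood apart from male arrays in Eif2s3 and Ddx3x, X-linked genes that escape inactivation: Eif2s3 lay at 2.51 to 2.59 in the female and 1.84 to 1.91 in the male arrays. The probe of the Y-linked gene Sry did not separate the sexes and was well above background on all female arrays. Its mean level was -5.39 in female and -5.35 in male controls, and -5.56 and -5.40 after TCDD. Between 75.7% and 78.4% of the spots on a female array were well above background and none was saturated. In bulk tissue RNA, fewer cells of a type and less RNA per cell cannot be told apart.

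After TCDD the repressor of the Ah receptor and its classical target enzyme rose, and their differences were the largest of all genes measured. Ahrr rose 58.1-fold and Cyp1a1, the cytochrome P450 that oxidises aromatic hydrocarbons, rose at least 24.0-fold, and no gene passed the test in the lower direction. These were the only 2 genes of 19361 that passed an adjusted p of 0.05 in limma, or 0.0103% of the genes tested. An unadjusted p below 0.05 was reached by 511 genes (2.64%), of which 130 were higher (0.671%) and 381 lower (1.97%) after TCDD. The share of higher genes among them was 25.4% with levels taken relative to the 75th percentile, 33.8% with median centring, 39.1% after quantile normalization and 36.6% in the authors' deposited value table; after normexp background correction 90 genes were higher and 361 lower. Lower genes thus outnumbered higher ones under each of these scalings. The groups did not overlap in 1344 of 19331 genes with a value on every female array (6.95%), with TCDD higher in 286 (1.48%) and lower in 1058 (5.47%). A difference of at least 1 in either direction was seen in 412 genes (2.13%), higher in 138 (0.713%) and lower in 274 (1.42%). The median difference over all genes was -0.03, and 41.1% of genes lay above 0. That share depended on the scaling. It was 48.6% with median centring, 49.0% after quantile normalization, 47.3% in the deposited value table and 34.8% after normexp background correction.

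**Figure D2:**
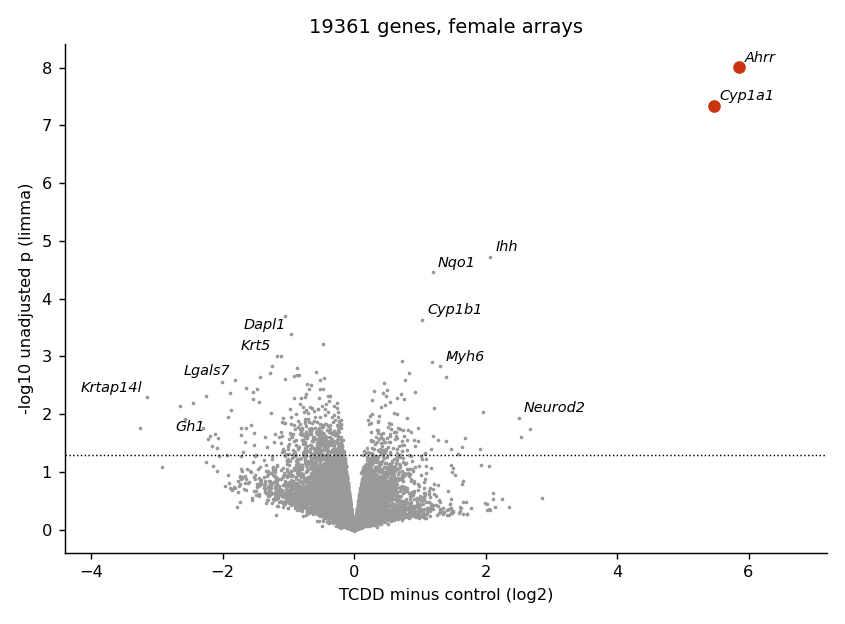
Difference between TCDD and control on the log2 scale (x axis) against the -log10 unadjusted p of limma (y axis) for 19361 genes of the female arrays; red points passed an adjusted p of 0.05 and the dotted line marks an unadjusted p of 0.05. Ahrr and Cyp1a1 stand alone at the top right, with Ihh, Nqo1 and Cyp1b1 next on the higher side and Dapl1 and Krt5 among the lower genes.

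Ahrr, whose probe lies at chr1:29894853-29894912 in the rn4 build, had levels of -6.14, -4.98 and -5.79 in the 3 control arrays and 0.23, 0.67 and -0.23 in the 3 TCDD arrays. The groups were far apart, and the spread within each was a small part of the gap: the means were -5.64 ± 0.59 and 0.22 ± 0.45 (SD, n = 3 each). The difference of 5.86 (SE 0.36) had an adjusted p of 0.00019 in limma. Within slide 3, which held C3 and all TCDD arrays, the difference was 6.01 with an adjusted p of 0.80, from 1 control array.

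Cyp1a1, with its probe at chr8:61468133-61468192 in rn4, was not well above background on any control array, where its signal lay at -7.35, -7.58 and -7.26. On the TCDD arrays it was well above background at -1.86, -1.33 and -2.58, so that no control array came near any TCDD array. The measured means of -7.39 ± 0.16 and -1.92 ± 0.63 (SD, n = 3 each) differed by 5.47 (SE 0.39; adjusted p = 0.00044 in limma). The bound of 24.0-fold sets the mean of the TCDD arrays against the lowest signal that counted as well above background on each control array. The call was lost after normexp background correction at a difference of 2.20 and an adjusted p of 0.094, and within slide 3, at 5.34 and an adjusted p of 0.98.

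Ihh, the secreted hedgehog ligand best known from growth cartilage and gut, had the next smallest p. Its control levels were -2.31, -3.18 and -3.30 and its TCDD levels -0.95, -0.69 and -0.93, so every TCDD array lay above every control array. The difference of 2.07 (SE 0.28), or 4.21-fold, did not pass over all genes (adjusted p = 0.12 in limma). It passed with array C1, the highest control, left out, at an adjusted p of 0.018, and with the mean of the sensory neuron markers as a covariate, at 0.043. A second Ihh probe gave a signal well above background on 1 array alone and was left out. Of the 11 genes measured on a hedgehog list of 17, only Ihh reached an unadjusted p of 0.05, and the median difference was 0.02. Gli1, a transcription factor that hedgehog signalling induces in the receiving cell, differed by 0.39 and Ptch1, the hedgehog receptor and itself an induced gene, by 0.01, both with overlapping groups.

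Nqo1, a quinone reductase, had levels of -4.41, -4.26 and -3.96 in controls and -2.88, -2.87 and -3.29 after TCDD. Cyp1b1, the other inducible cytochrome P450 of its family in extrahepatic tissue, had -1.31, -1.57 and -1.25 against -0.37, -0.05 and -0.63. In both genes every TCDD array exceeded every control array, by a mean of 1.20 (SE 0.17; adjusted p = 0.17) and 1.03 (SE 0.19; adjusted p = 0.75) in limma, so neither passed. Ugt1a6, a glucuronosyltransferase, showed the same order with a smaller step, at -0.75, -0.99 and -0.70 against -0.45, -0.39 and -0.44. The probe named ENSRNOT00000015387, which the files describe as the TCDD-inducible poly(ADP-ribose) polymerase, lay at -1.21, -1.20 and -0.99 in controls and -0.69, -0.36 and -0.87 after TCDD, again without overlap.

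On the whole Ah receptor list 16 of 21 genes were measured, 2 were called, and 8 had an unadjusted p below 0.05, all of them higher, against 0.671% of all genes. Ihh stands on this list because earlier results of these data were known, so its place there is not independent of them. The median difference of the list was 0.19. Nfe2l2, the stress factor that shares targets with the Ah receptor, differed by 0.37 and Aldh3a1, an aldehyde dehydrogenase, by 0.77, with overlapping groups in both. Within slide 3 the median of the list was 0.05, and the differences of Nfe2l2 and Aldh3a1 were 0.06 and 0.17. Arnt and Arnt2, the partners of the receptor, differed by 0.02 and -0.11. Ahr itself lay lower on every TCDD array than on every control array, at -5.61, -5.52 and -5.60 against -4.72, -5.33 and -5.28, but the difference of -0.47 had an unadjusted p of 0.080 and an adjusted p of 1.00 in limma. Xdh, a xanthine oxidoreductase, was also lower without overlap, by 0.40. A list of general oxidative stress genes controlled by Nfe2l2 had a median difference of 0.05 over 20 measured genes, with no group apart in either direction. Nfe2l2 itself is on this list. Nqo1, which was higher by 1.20 without overlap, is on the Ah receptor list and not on this one. Srxn1, a sulfiredoxin, had the lowest difference at -0.55.

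**Figure D3:**
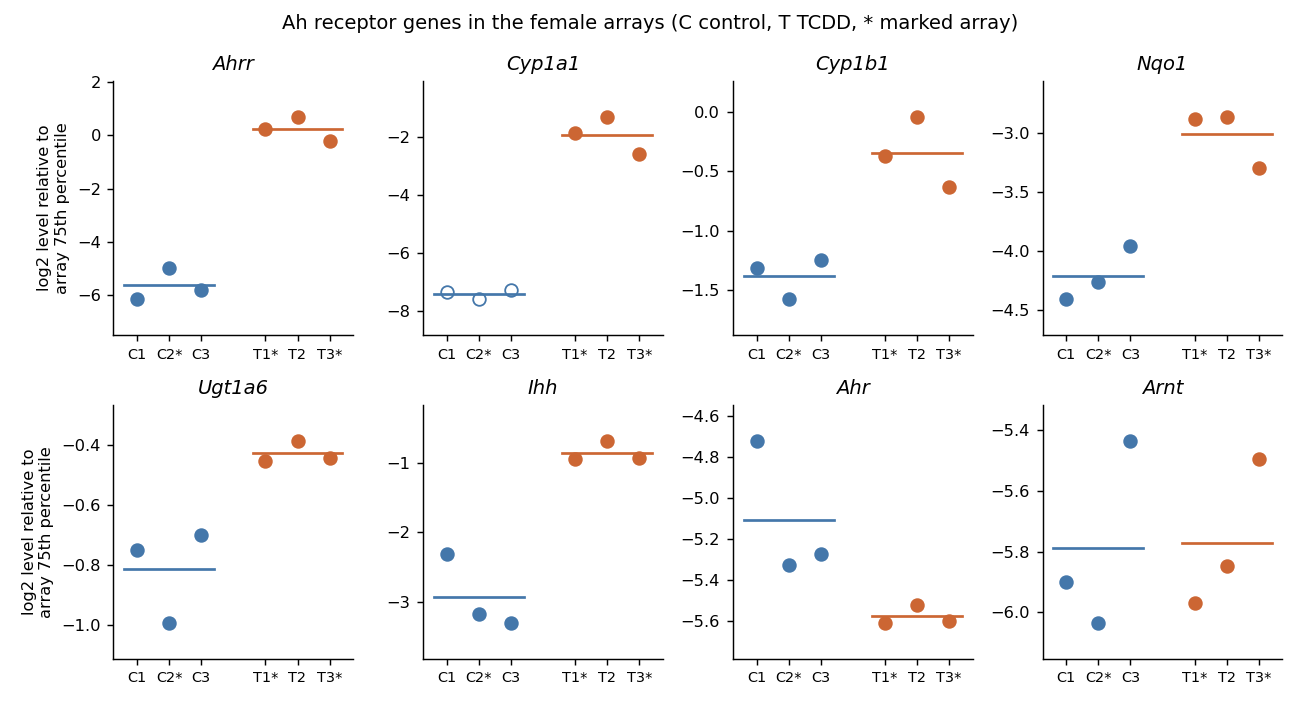
Level of 8 genes in each female array (x axis: C control in blue, T TCDD in orange, an asterisk for an array with high sensory neuron signal; y axis: log2 level relative to the array's 75th percentile; lines are group means and open circles are groups with no array well above background). Ahrr, Cyp1a1, Cyp1b1, Nqo1, Ugt1a6 and Ihh are higher in all 3 TCDD arrays, Ahr is lower in all 3 and Arnt overlaps.

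Leaving out the marked arrays left C1 and C3 against T2, where Ahrr differed by 6.64 and was the only gene called. Leaving out the other arrays, an alternative chosen after the data were seen, left C2 against T1 and T3, where Ahrr differed by 4.98, Cyp1a1 by 5.36 and no gene was called (313 with an unadjusted p below 0.05 in limma). Each of these subsets has a group of 1 array, whose spread is taken from the other groups in the fit. Ihh, Nqo1 and Cyp1b1 lay higher after TCDD on both sides of the sensory division: Ihh by 2.24 among the marked arrays and 2.12 among the others, Nqo1 by 1.18 and 1.31, and Cyp1b1 by 1.07 and 1.24. Ahr lay lower on both, at -0.28 and -0.52.

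No hormone gene of the anterior lobe passed the test over all genes. Gh1, growth hormone, had the widest gap, at -0.61, -2.10 and -0.46 in controls and -3.98, -3.99 and -1.78 after TCDD. The groups overlapped, because control array C2 lay below TCDD array T3, and both of these are marked arrays. The difference of -2.19 (SE 0.83) had an unadjusted p of 0.024 and an adjusted p of 1.00 in limma, and it was -0.78 among the marked arrays and -3.45 among the others. Ghrhr, the receptor through which the hypothalamus drives growth hormone, was lower by 1.72 without overlap, by 0.23 and 2.74 in the same subsets. It was well above background on 2 of the 3 TCDD arrays, so the size of these differences is uncertain. Sstr2, a somatostatin receptor, went the other way, at -3.37, -2.69 and -3.72 against -2.38, -2.36 and -2.61, and Rxrg, a retinoid X receptor, was higher by 0.27, both without overlap. The difference of Sstr2 was 0.19 among the marked arrays and 1.19 among the others. On the somatotrope list of 10 measured genes the median was -0.50, with 4 genes lower and 2 higher without overlap, where 5.47% of all genes lay lower and 1.48% higher in this way.

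Tshb, the specific subunit of thyrotropin, was the steadier case, at 5.25, 5.14 and 4.88 in controls and 4.40, 4.26 and 4.28 after TCDD. All TCDD arrays lay below all controls, and the difference was -0.80 among the marked arrays and -0.81 among the others. Over the 6 arrays it was -0.78 (SE 0.29), with an unadjusted p of 0.022 and an adjusted p of 1.00 in limma. Cga differed by -0.46, Dio2, the deiodinase that activates thyroid hormone, by -0.73, and Igsf1, a pituitary membrane glycoprotein, by -0.69, each without overlap. Pou1f1, the factor that specifies somatotropes, lactotropes and thyrotropes, lay at 0.79, 0.20 and 0.31 against -0.20, -0.03 and -0.06. Prl, prolactin, differed by 0.04, and its groups overlapped. The lactotrope and thyrotrope list had 5 of 12 measured genes lower without overlap and none higher, against the same shares of all genes.

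Among gonadotrope genes, Gnrhr, the receptor for gonadotropin-releasing hormone, had levels of -2.02, -2.32 and -2.34 in controls and -3.19, -3.17 and -2.89 after TCDD. The granins, acidic proteins that pack hormones into secretory granules, also lay lower without overlap: Chgb at 4.74, 4.42 and 4.13 against 3.90, 3.59 and 3.67, and Chga between 0.83 and 1.27 in controls against 0.03 to 0.56 after TCDD. Their differences were -0.71 (SE 0.18) and -0.73 (SE 0.20), with adjusted p-values of 1.00 in limma, and in each the lowest control was C3, the one on the slide of the TCDD arrays. Within slide 3 the differences were -0.41 and -0.49. Scg2, secretogranin II, differed by -0.57, Lhb, the specific subunit of luteinising hormone, by -0.43 and Nr0b1, a nuclear receptor of gonadotropes, by -0.54. Fshb was near background, well above it on 2 control arrays and 1 TCDD array. In all, 8 of 22 measured genes of the list lay lower without overlap and none higher, where 5.47% of all genes lay lower; the list's median was -0.24, and -0.47 in C1 and C3 against T2 but -0.11 in C2 against T1 and T3.

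Pomc differed by -0.29 with overlapping groups and without a value on C3, where its spot was marked as non-uniform by the scanner software and left out. Tbx19, the factor that switches on Pomc, differed by -0.48 and Avpr1b, a vasopressin receptor of corticotropes, by -0.50, without overlap, and the list of 14 measured genes had a median of -0.18, which was 0.00 within slide 3. Of 21 measured genes of pituitary progenitors 4 lay above 0, where 41.1% of all genes did, and 6 were lower without overlap against 5.47% of all genes; the median was -0.36. Lhx3, a LIM factor of the early pouch, differed by -0.37, and the epithelial genes Cdh1 and Krt18 by -0.44 and -0.48. Of these 21 genes none reached an unadjusted p of 0.05. C1 was the highest array for Lhx3, Cdh1 and Krt18, and without C1 the median of the list was -0.20.

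**Figure D4:**
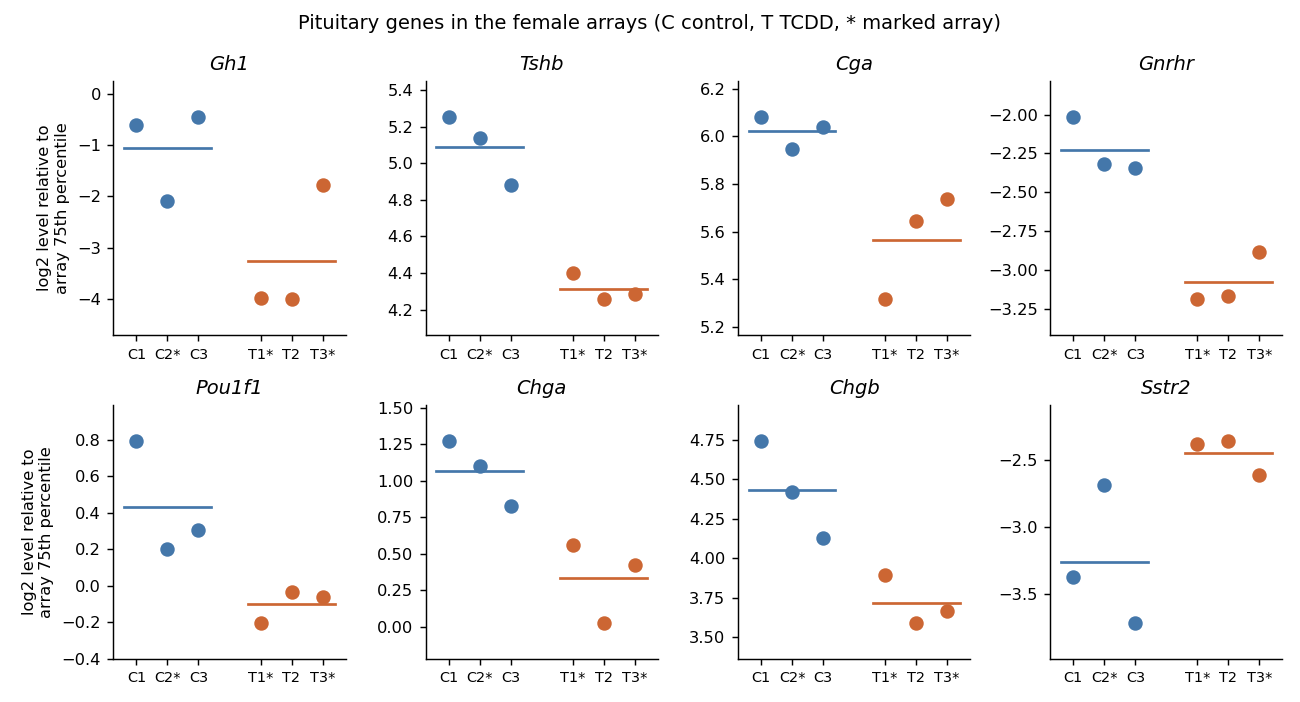
Level of 8 pituitary genes in each female array (axes, colours, lines and asterisks as in the plot of Ah receptor genes). Gh1 overlaps between groups because C2 lies below T3; Tshb, Cga, Gnrhr, Pou1f1, Chga and Chgb are lower and Sstr2 is higher in all 3 TCDD arrays.

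Krtap14l and Krtap13-2, keratin-associated proteins of hair, Sbsn, suprabasin of the upper epidermis, and Trim29, a basal epithelial gene, lay lower after TCDD without overlap. They were well above background on all 3 control arrays but on only 1, 2, 2 and 1 of the 3 TCDD arrays, so the size of their differences is uncertain. Krtap14l lay at -5.57, -2.51 and -4.56 in controls and at -5.86, -7.24 and -8.96 after TCDD, and its difference of -3.14 ranged from -4.90 to -0.93 over the alternatives. Lgals7, a galectin of squamous epithelium that was well above background on every female array, differed by -1.80 without overlap. Krt5, a keratin of basal epithelial cells, lay at -5.06, -4.59 and -4.95 against -6.08, -5.59 and -6.45, a difference of -1.17 (SE 0.26; adjusted p = 1.00 in limma). It was -0.37 after normexp background correction, -1.68 among the marked arrays and -0.59 among the others. Of 17 measured genes on the stratified epithelium list 2 lay above 0, where 41.1% of all genes did, 8 were lower without overlap against 5.47% of all genes, and the median was -0.61. The mean level of the list was -3.35, -2.82 and -2.90 in the controls and -3.55, -3.90 and -4.09 after TCDD, so the groups did not overlap in it either. In male fetuses the same list had a median of 0.22, with Krt14 at 1.12 and Krt17 at 1.93, where the female differences were -1.07 and -0.48. Male controls, without TCDD, had mean levels of -6.93, -6.40, -4.06 and -5.68 for Krtap14l, Krtap13-2, Lgals7 and Krt5. These lay nearer to the female TCDD means (-7.35, -6.36, -4.20 and -6.04) than to the female control means (-4.21, -3.79, -2.40 and -4.87). C2 was the highest female control for each of these genes. Whether the amount of surface epithelium in the samples had a part in these values was not tested. Dapl1, an epithelial gene that also stands on this list, lay at -1.82, -2.04 and -1.89 against -2.89, -3.03 and -2.69, and its difference of -0.96 was close to the -0.85 of the male arrays. Its mean in male controls, at -2.02, was near the -1.91 of female controls.

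Further lower genes without overlap were Serpina3c, a protease inhibitor, which was not well above background on any TCDD array and was at least 2.60-fold lower, Cdkn2b, an inhibitor of cyclin-dependent kinases, which differed by -1.11, and P2rx2, an ATP-gated channel, by -0.47. Cdkn2b lay at -3.63, -3.62 and -4.23 against -4.74, -5.30 and -4.76. The other 11 measured genes on the list of cell cycle inhibitors had differences between -0.16 and 0.38, and none of 24 cell cycle genes reached an unadjusted p of 0.05 (median -0.06). Adh6a, an alcohol dehydrogenase, differed by -2.02 and LOC682360, a gene of no known role, by -1.04, with an adjusted p of 0.75 in limma for the latter. Adh6a was well above background on 2 of the 3 TCDD arrays, so the size of its difference is uncertain. It was -3.10 among the marked arrays and -1.32 among the others. The mean level of Adh6a was -4.71 in female controls, -6.73 in female TCDD arrays and -6.23 in male controls. Tnfrsf9, a receptor of activated lymphocytes, Vom2r2, a vomeronasal receptor, and Tnni3k, a cardiac kinase, were not well above background on any TCDD array. On the 3 control arrays they were well above it on only 2, 2 and 1, so the size of their differences is uncertain.

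On the higher side, the alpha and beta heavy chains of cardiac myosin, Myh6 and Myh7, lay at -0.92, -1.70 and -1.99 and at -1.55, -2.12 and -2.41 in the controls. After TCDD they lay at -0.34, 0.00 and -0.36 and at -1.05, -0.56 and -0.91. The differences were 1.30 (SE 0.30) and 1.19 (SE 0.27), without overlap and with adjusted p-values of 1.00 in limma. The 2 genes are similar paralogs that lie side by side, and cross-hybridisation between their probes was not tested. No other of the 12 measured heart muscle markers exceeded 0.09, and their median was -0.07. Aldh1a1, a retinaldehyde dehydrogenase, differed by 0.76, Crabp1, a binding protein for retinoic acid, by 0.70, Ccl2, a chemokine, by 0.71 and Atf3, a stress factor, by 0.65, each without overlap. In contrast Rbp4, the retinol carrier, and Aldh1a2, another retinaldehyde dehydrogenase, were lower without overlap, by 0.68 and 0.60, and the retinoid list as a whole had a median of -0.02. Alox5, the lipoxygenase of leukotriene synthesis, Chst5, a sulfotransferase, and Cyp3a9, a steroid hydroxylase, were not well above background on any control array and were at least 1.43-fold, 1.90-fold and 1.69-fold higher.

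Neurod2, a factor of cortical neurons, lay at -5.88, -6.33 and -5.45 in controls and -5.05, -3.10 and -2.00 after TCDD. Its difference was 2.50, and Pou3f3, a POU factor of neural progenitors, differed by 1.64, each without overlap and with adjusted p-values of 1.00 in limma. Over a forebrain list of 20 measured genes, put together after these values were seen, the mean level was -2.86, -3.50 and -3.47 in controls and -3.20, -2.49 and -1.85 in T1, T2 and T3, so T1 lay within the control range. The amount of adjoining brain tissue in the samples was not tested.

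Markers of cartilage and bone lay above 0 in 18 of 18 measured genes, where 41.1% of all genes did, but their mean level on T3, at -2.92, lay below that of every control (-2.80, -2.83 and -2.52). The median was 0.20, and 0.46 without T3. Only Matn1, a cartilage matrix protein, reached an unadjusted p of 0.05, at -6.27, -6.23 and -5.79 against -3.89, -5.46 and -5.69. Fibroblast markers had a median of 0.23 and endothelial markers 0.13. Of 18 endothelial genes 13 lay above 0 and 5 below. Gpihbp1, the capillary anchor of lipoprotein lipase, was the only one lower without overlap, by 0.60. Macrophage, erythroid and cholesterol synthesis genes had medians of 0.15, 0.10 and 0.11, and 23 of 24 cholesterol synthesis genes had a higher mean in the marked arrays than in the others. Within slide 3 the medians of the fibroblast, endothelial, macrophage and erythroid lists were -0.03, -0.07, -0.30 and -0.52, so their direction depended on the slide 2 controls. Clock genes had a median of -0.20, with Rora, a nuclear receptor of the clock, lower without overlap, by 0.60. Median differences of posterior lobe and hypothalamic genes, skeletal muscle markers, steroid and xenobiotic receptors, and genes of the Notch, Wnt, Bmp and Fgf pathways were -0.09, -0.26, -0.19 and -0.04. The skeletal muscle median was 0.17 among the marked arrays, -0.49 among the others and -0.01 within slide 3. Stress, hypoxia and interferon genes lay at -0.03, 0.05 and -0.03.

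**Figure D5:**
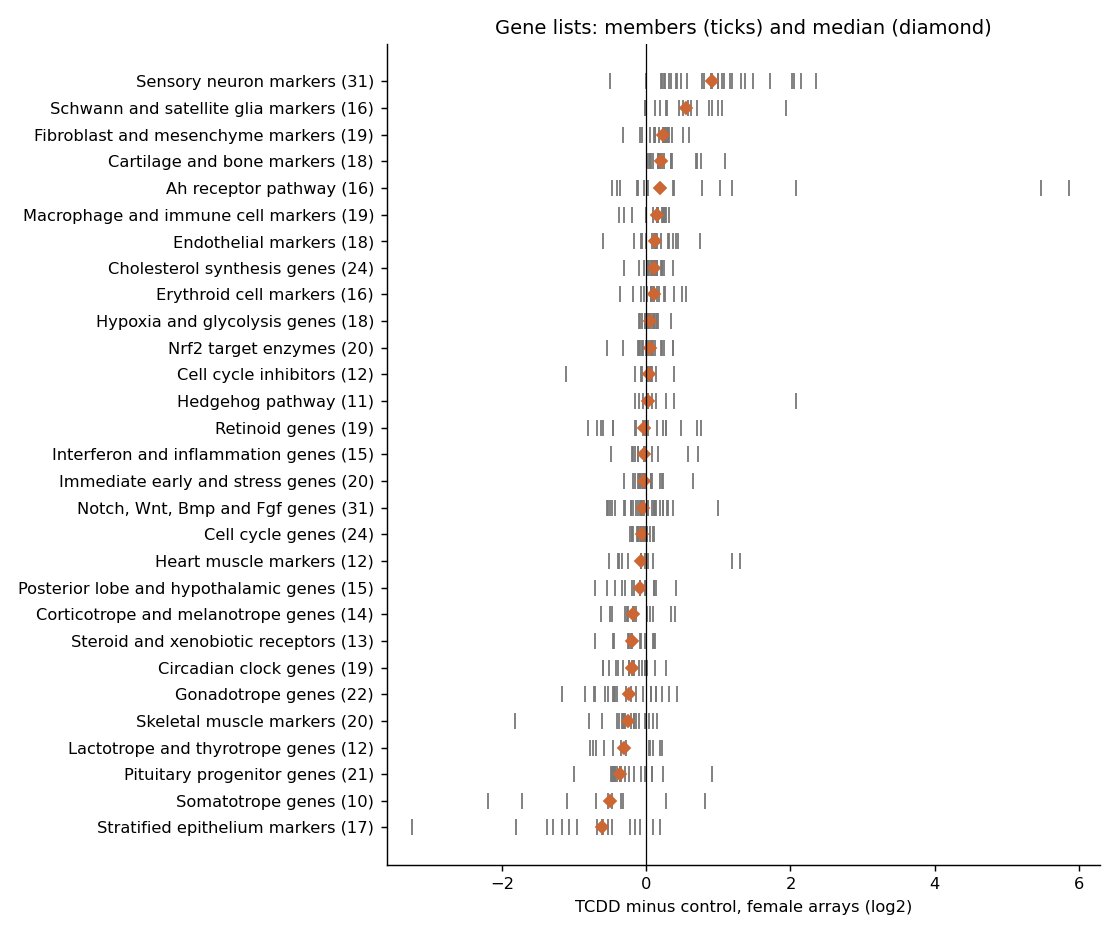
TCDD minus control on the log2 scale (x axis) for the measured members of 29 gene lists (y axis, number of measured members in parentheses); grey ticks are genes and orange diamonds are medians. The medians run from -0.61 for stratified epithelium to 0.91 for sensory neuron markers, and the Ah receptor list holds the ticks farthest to the right.

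The effect of TCDD was then compared with that in male fetuses, in the same model over all 12 arrays. No gene differed in effect between the sexes at an adjusted p of 0.05 in limma, the smallest being 0.88, while 866 genes (4.47%) had an unadjusted p below 0.05. Ahrr differed by 5.86 in females and 5.98 in males, Cyp1a1 by 5.47 and 5.76, Ihh by 2.07 and 2.04, and Nqo1 by 1.20 and 1.38. The smallest p among genes with a symbol belonged to Stk32a, a kinase, which was not well above background on any female TCDD or male control array and was at least 1.92-fold lower after TCDD in females (unadjusted p = 0.00064, adjusted p = 0.88 in limma for the difference between sexes). Cldn14, a tight junction protein, differed by 0.70 and 2.43. Chga was lower by 0.73 in females and higher by 0.17 in males, at an unadjusted p of 0.0097 for the difference between sexes, which did not pass. With the slide as a fixed block 6 genes passed for the difference between sexes, where slide 1 held male arrays alone, slide 3 female arrays alone and slide 2 both. Of 19361 genes, 12 were higher without overlap and by a measured difference of at least 1 in both sexes, among them Ahrr, Cyp1a1, Ihh, Nqo1, Myh6, Myh7 and Alox5. Alox5 was not well above background on any control array of either sex, so the size of its difference is uncertain. Another 7 genes were lower in the same way, among them Inmt, a methyltransferase, Pmch, the precursor of melanin-concentrating hormone, and Rbp3, a retinoid-binding protein of the photoreceptor matrix. Rbp3 was well above background on 1 female control array, all 3 male control arrays and no TCDD array. With no minimum difference, 71 of 19361 genes were lower without overlap in both sexes, and as many, 71, were lower in females and higher in males. Higher in both were 63. In females alone 5.47% of genes were lower and 1.48% higher without overlap. The share in males was not counted, so whether the sexes shared more genes than these shares would give was not tested.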

How the data were processed

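Arrays were scanned and read with Agilent Feature Extraction 10.7.1.1 per the file headers (9.5.1.1 per the submitters' processing notes), and the deposited files give spot intensity, with gProcessedSignal background-subtracted within each array. The authors' deposited value table holds linear intensity of the same probes, with a median of 83.5 in every array and a rank correlation of at least 0.99999 with the scanner values; how it was normalized is not given in the sources used here. Log2 values were computed here from the deposited intensity, minus the 75th percentile of each array's non-control spots. Spots of a probe were averaged, outlier spots were left out, and 22426 of 30367 probes well above background on at least 3 of 12 arrays were kept. Of several probes of a gene, the one of highest mean level stood for it, which gave 19361 genes (16583 with 1 probe). RefSeq's GRCr8 gene table gave a symbol through the accession for 14371 kept probes and through the symbol for 1891; 6164 kept the name in the files. Probe positions are on rn4. The number of arrays limits the precision.

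Groups came from the labels. limma 3.58.1 in R 4.3.3 fitted a mean for each of 4 groups over 12 arrays, with moderated variances that follow intensity, and p-values were adjusted over all genes (Benjamini-Hochberg); the code was tested on simulated data. Slides 2 and 3 held the female arrays (C1 and C2 on slide 2, C3 and all TCDD arrays on slide 3). A probe dim on every array of a group, and well above background on every array of the other, was given a bound as described for Cyp1a1. Genes were named by rule: all called genes; the 10 higher and 10 lower of largest difference among those with a symbol, an unadjusted p below 0.05 and no overlap; the 10 of smallest p; up to 8 of smallest p for the difference between sexes; a fixed set of Ah receptor, hedgehog and hormone genes; up to 3 at each end of each list; 6 each way between marked and other arrays; and 5 most like Avil. Members and lists were chosen with earlier results of these data known. Other list members and Ahr pathway values were named after their values were seen. Some genes that the rule names are not reported here. Alternatives covered background correction (normexp with an offset of 50), normalization, the filter, slide, array weights, the sensory signal, the replicate block and each left-out array. Same-numbered female arrays had deviations from their group means that correlated between -0.70 and -0.38. Each such pair joins a marked and an unmarked array, so these values cannot show whether the numbers pair the arrays.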

Additional observations from a re-analysis of the deposited data

How the results depend on the processing

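With 3 female arrays a group every test is limited, and only changes as large as those of Ahrr and Cyp1a1 passed. The count of 2 called genes was 1 with normexp background correction, 1 when a probe had to exceed background on each of the 12 arrays, 1 without the marked arrays C2, T1 and T3, 0 within slide 3 (527 at an unadjusted p below 0.05 in limma) and 0 without the other arrays C1, C3 and T2 (313), and ranged from 2 to 3 with each female array left out. Ahrr kept its direction under all 23 alternatives (3.79 to 6.64); it missed the threshold within slide 3 (6.01) and without C1, C3 and T2 (4.98), and leaving out single arrays gave 5.61 to 6.19. Cyp1a1, which the strictest filter removes, kept its direction under the other 22; it missed the threshold with normexp (2.20), within slide 3 (5.34), without C2, T1 and T3 (5.98) and without C1, C3 and T2 (5.36), and single arrays left out gave 5.17 to 5.80. Fewer arrays enter the last 3 of these fits. The normexp fit added 50 to each signal before the logarithm, which narrows differences between dim signals. How far this setting accounts for the lost call was not tested. The count of genes differing between sexes was 6 with slide as a fixed block and 0 to 0 with single female arrays left out. With the replicate block, Ahrr differed by 5.86 and Cyp1a1 by 5.47, the count was 2, and no call changed; the numbers share no known litter or batch. Of the other genes recomputed, none changed direction; Ihh passed in 2 settings. List medians moved beyond the spread in 44 of 690 cases, most often with slide as a block or within slide 3. The alternative without C1, C3 and T2 was added after seeing the data.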
